A study of Mus musculus with 6 samples.

Results

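The immunoglobulin heavy chain V segments of the mouse (Ighv segments) were followed across 6 RNA-seq libraries, 1 library for each condition. All genes that the GENCODE M21 annotation types as V genes and whose symbols start with Ighv were taken, which gave 113 segments out of 54532 genes listed in the files. The rule uses the annotation and no measured value. The 113 segments lie on the minus strand of chromosome 12 between positions 113578504 and 116000461 (build mm10, the same assembly as GRCm38), and another 70 Ighv entries of the annotation are pseudogenes and were kept apart.

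The libraries came from C57BL/6 mice in 4 states: WT mice and mice with MLL-AF9-induced acute myeloid leukemia (MA9 mice), each either given repeated intraperitoneal injections of iron dextran (WT/FE and MA9/FE) or PBS. In the MA9 model, c-kit+ bone marrow (BM) cells carrying an MSCV retrovirus with MLL-AF9 and GFP were first transplanted, GFP+ leukemia cells of these mice were passed on to further C57BL/6 mice, and those recipients were given iron or PBS. Macrophages were sorted from all 4 states, and the leukemia cells came from BM of the leukemic mice, with iron (MA9/FE leukemia cells) or without (MA9 leukemia cells). The labels place the macrophages in the spleen while the methods of the study place them in the BM, so the tissue is left unnamed here. The methods give a gate for BM macrophages only, as GFP- Gr-1 low F4/80+ CD115 intermediate cells with intermediate or low side scatter. If the labels hold, the gate of these libraries is not given. The number of mice behind each library is not given in the sources used here. With 1 library per condition there was no replicate spread, no test was possible, and every difference given compares 2 libraries. Where 4 values are listed for the macrophage libraries, they stand in the order WT, WT/FE, MA9, MA9/FE, and where 2 are listed for the leukemia cells, MA9 comes before MA9/FE.

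A heavy chain V segment is the part of the antibody gene that encodes most of the variable domain, including CDR-H1 and CDR-H2, 2 of the loops that contact antigen. In developing B cells the RAG recombinase joins 1 V segment to a D and a J segment, and transcription of the joined gene then makes V reads appear in RNA. Each B cell clone uses 1 productive V segment, and plasma cells, the antibody-secreting end stage, hold very large amounts of this mRNA. Macrophages and other myeloid cells do not rearrange the locus as part of their normal development.

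The segment with the highest usage in each library is shown first, because the libraries differed first of all in which segment led. Usage is the FPKM of a segment as a percentage of the summed FPKM of all Ighv segments in that library. Each line gives the last 294 bases of the V exon, 5′ to 3′, read from the GENCODE M21 transcripts, with the 2 stretches found by conserved neighbouring codons as CDR-H1 and CDR-H2 in capitals. Ighv7-3 (chr12:114153180-114153473) led in WT macrophages, Ighv1-26 (chr12:114788372-114788665) in WT/FE macrophages, Ighv1-81 (chr12:115920279-115920572) in MA9 macrophages, Ighv9-3 (chr12:114140692-114140985) in MA9/FE macrophages, and Ighv7-1 (chr12:113896408-113896701) in both leukemia cell libraries.
Ighv7-3: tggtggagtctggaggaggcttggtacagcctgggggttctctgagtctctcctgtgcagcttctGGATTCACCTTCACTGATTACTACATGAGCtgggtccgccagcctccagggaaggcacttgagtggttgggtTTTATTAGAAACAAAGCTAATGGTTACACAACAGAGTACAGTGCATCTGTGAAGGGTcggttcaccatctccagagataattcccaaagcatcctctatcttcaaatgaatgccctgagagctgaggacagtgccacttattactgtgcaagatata
Ighv1-26: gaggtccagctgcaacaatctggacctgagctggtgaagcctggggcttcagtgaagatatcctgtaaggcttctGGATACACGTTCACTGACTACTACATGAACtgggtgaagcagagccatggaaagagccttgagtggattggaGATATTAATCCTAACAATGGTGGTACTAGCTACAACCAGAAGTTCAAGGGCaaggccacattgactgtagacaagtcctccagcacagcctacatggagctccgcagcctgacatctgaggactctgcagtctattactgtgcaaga
Ighv1-81: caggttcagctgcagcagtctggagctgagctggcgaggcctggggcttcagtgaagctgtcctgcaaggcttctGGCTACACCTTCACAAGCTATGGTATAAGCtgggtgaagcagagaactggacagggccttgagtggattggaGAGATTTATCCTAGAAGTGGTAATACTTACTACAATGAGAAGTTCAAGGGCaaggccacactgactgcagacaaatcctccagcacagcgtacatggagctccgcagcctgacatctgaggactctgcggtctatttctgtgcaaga
Ighv9-3: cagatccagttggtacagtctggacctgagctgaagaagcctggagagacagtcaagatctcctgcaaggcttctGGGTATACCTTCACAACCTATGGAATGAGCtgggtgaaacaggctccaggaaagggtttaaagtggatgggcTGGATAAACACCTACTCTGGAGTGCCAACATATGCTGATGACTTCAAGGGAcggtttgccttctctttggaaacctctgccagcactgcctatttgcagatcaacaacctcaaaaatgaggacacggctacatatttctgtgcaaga
Ighv7-1: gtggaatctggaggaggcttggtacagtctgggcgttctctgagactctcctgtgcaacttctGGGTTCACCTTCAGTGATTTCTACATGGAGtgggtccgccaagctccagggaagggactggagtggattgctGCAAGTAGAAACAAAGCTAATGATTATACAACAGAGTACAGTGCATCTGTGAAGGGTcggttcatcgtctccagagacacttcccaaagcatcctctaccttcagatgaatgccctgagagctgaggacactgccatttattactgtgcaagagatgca
Ighv7-3 and Ighv7-1 belong to 1 family (S107) and were 89.3% identical over the V exon. The other pairs among these 5 segments were 59.6% to 84.9% identical, with the Ighv1 (J558) members Ighv1-26 and Ighv1-81 the closest of them. Over all 113 segments the median identity to the nearest other segment was 95.1%, and 27 segments were at least 97% identical to another one, so reads could be split or swapped between close relatives and single-segment values of such segments are uncertain. Among the segments that rank high in what follows, Ighv1-26 was 97.4% identical to Ighv1-18, Ighv14-2 was 97.05% identical to Ighv14-1, and Ighv11-2 was 98.7% identical to Ighv11-1. Segments named later for their differences between libraries include Ighv1-61 (98.7% identical to Ighv1-52), Ighv2-4 (98.0%, Ighv2-2) and Ighv1-4 (97.7%, Ighv1-7). Ighv14-1 (97.4%, Ighv14-4) and Ighv1-50 (97.05%, Ighv1-69) are also among them. As a description of the 3′ ends, the letters TGTGCAAGA on the coding strand stood in the last 12 bases of 58 of the 113 V exons, and these 58 segments carried between 44.5% and 69.9% of the Ighv FPKM of a library. Ighv7-3 and Ighv7-1 hold the same letters slightly farther from the end, as printed above, and are not among the 58, so these shares depend on the window.

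Reads could be recovered from the deposited FPKM values, since at least 96.8% of the values of a library were whole multiples of what 1 read is worth for that gene. This put the depth of a library between 16085348 and 19518360 reads, and all 113 segments gave whole reads in all 6 libraries. Ighv segments took 46633 and 49978 reads in WT and WT/FE macrophages, and 107849 and 91466 reads in those of MA9 and MA9/FE mice. In leukemia cells they took 353 reads in MA9 mice and 435 in MA9/FE mice.

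As a share of all recovered reads, the Ighv segments made up 0.239% in WT macrophages (95% Wilson interval 0.237 to 0.241) and 0.298% in WT/FE macrophages (0.295 to 0.300). In leukemic mice it was 0.634% in MA9 macrophages (0.631 to 0.638), while MA9/FE macrophages held 0.569% (0.565 to 0.572). The shares were thus 2.66 times as high in MA9 as in WT macrophages, and 1.91 times as high in MA9/FE as in WT/FE macrophages. With iron the share was 1.25 times as high in WT and 0.896 times as high in MA9 macrophages. These intervals cover counting error only, since reads without molecular identifiers are not independent molecules, and they say nothing of the spread between mice.

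Leukemia cells held very little Ighv signal. The share was 0.00194% in MA9 leukemia cells (0.00175 to 0.00216) and 0.00244% with iron (0.00222 to 0.00268). It was 326 times as high in the macrophages as in the leukemia cells of MA9 mice, and 233 times as high in those of MA9/FE mice.

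Markers of other cell types were also present. The 16 B cell markers (Cd79a, Ms4a1, Cd22 and others) were all at 1 FPKM or more in the 4 macrophage libraries and together took 0.868%, 0.850%, 0.514% and 0.788% of reads. The macrophage markers took less, from 0.0915% to 0.209% for the 16 of 17 with whole reads, although each was also at 1 FPKM or more. The 13 of 14 plasma cell markers with whole reads (Jchain, Xbp1, Sdc1 and others) took 0.302%, 0.301%, 0.561% and 0.632%. As a sum, the plasma cell markers were thus higher in both MA9 libraries, as the Ighv segments were, while the B cell markers were lower in MA9 than in WT macrophages. Most reads of the plasma cell sum were those of Jchain (31675 of 58994, 25399 of 50485, 58057 of 95312 and 68261 of 101673). Not every member followed: Slamf7 stood at 54.0, 52.2, 49.8 and 37.8 FPKM, and Tnfrsf13b was lower in MA9 (54.4 FPKM) than in WT macrophages (66.4 FPKM). In leukemia cells the B cell markers took 0.0366% and 0.0344% of reads, and 5 and 4 of the 16 were at 1 FPKM or more. Most of these reads were those of Cd37, a tetraspanin (5558 of 6645 and 5111 of 6143 reads). Cd79b stood at 17.3 and 16.4 FPKM and Cd22 at 3.13 and 3.37 FPKM, while Cd79a stood at 0.832 and 0.9996 FPKM and Ms4a1 at 0.116 and 0.127 FPKM. In these cells the plasma cell markers took 0.0811% and 0.0828%. Most of the 14718 and 14778 reads behind these shares were those of Edem1 (6551 and 6524) and Xbp1 (4223 and 4098). Jchain had 120 and 208 reads and Sdc1 62 and 40 in these cells. There the 4 markers of MLL-AF9 leukemia (Hoxa7, Hoxa9, Hoxa10 and Meis1) took 0.0448% and 0.0441% of reads, against 0.00108% to 0.00198% in macrophages, and Hoxa9, a homeobox gene that MLL-AF9 keeps on, was at 40.6 and 41.0 FPKM against at most 0.791 FPKM in macrophages. The part of these cells in the Ighv values was not tested, and in bulk samples fewer cells of a type and less RNA per cell cannot be told apart.

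**Figure D1:**
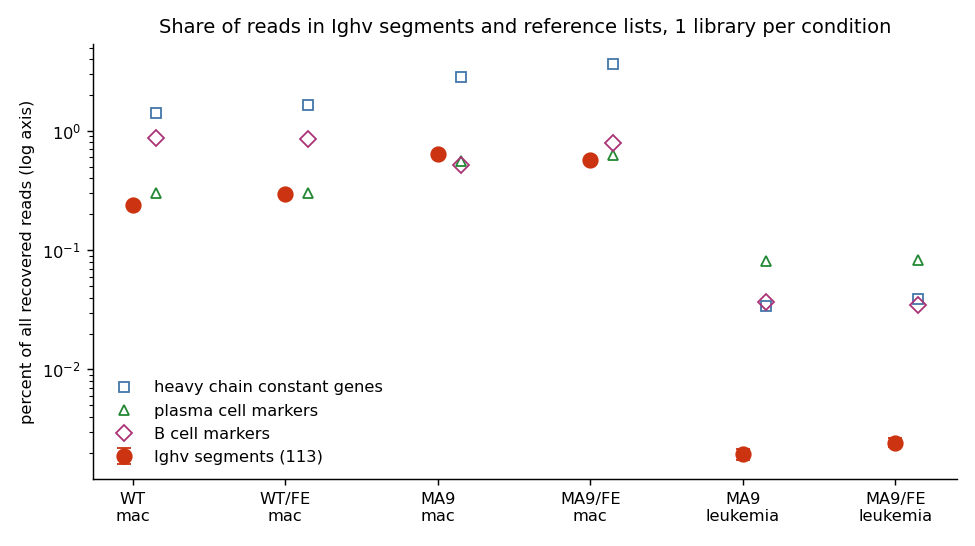
Percent of all recovered reads (log axis) in the 113 Ighv segments (filled circles, bars are 95% Wilson intervals, mostly smaller than the symbol) and in 3 reference lists (open symbols, drawn slightly to the right), for the 4 macrophage (mac) and 2 leukemia cell libraries. The Ighv share was 0.239% and 0.298% in WT and WT/FE macrophages, 0.634% (MA9) and 0.569% (MA9/FE) in the other 2, and under 0.003% in both leukemia libraries.

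The 8 heavy chain constant genes, which the joined V exon is spliced to, took 1.41%, 1.64%, 2.83% and 3.66% of reads in the 4 macrophage libraries, and their share in leukemia cells was 0.0339% and 0.0390%. Summed V FPKM stood at 0.923, 0.962, 1.16 and 0.806 times the summed constant FPKM in the 4 macrophage libraries. In leukemia cells this ratio was 0.308 and 0.326, below every macrophage library. Among the constant genes, Ighg2c (the IgG2c class) stood at 158, 917, 4388 and 4253 FPKM in the macrophage libraries, while Ighd, which naive B cells express, stood at 447, 453, 166 and 369 FPKM. Ighg2c was thus far lower in WT macrophages than in the other 3, and Ighd was lowest in MA9 macrophages.

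Of the 113 segments, 104, 101, 104 and 101 had at least 3 reads in the 4 macrophage libraries, and 99 had them in all 4. In the leukemia cells 35 and 42 segments reached 3 reads. This gap followed the number of Ighv reads: at the 353 Ighv reads of the MA9 leukemia library, the expected number of segments with at least 3 reads was 38.1, 41.6, 41.2 and 42.4 in the macrophage libraries against 35 and 35.1 in the leukemia libraries. Ighv5-12-4, Ighv7-2, Ighv16-1, Ighv1-24, Ighv1-62-1 and Ighv8-13 had 0 reads in all 6 libraries.

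Dominance differed between libraries (plot of cumulative usage). WT macrophages were the least even macrophage library, with Ighv7-3 at 15.9% of usage and an effective number of segments (the inverse Simpson index, the number of equally used segments that would give the same evenness) of 21.9. The effective number was 38.2, 34.6 and 38.7 in the other 3 macrophage libraries. Leaving the leading segment out raised it to 34.8 in WT macrophages and to 42.6, 41.5 and 41.8 in the other 3, so WT macrophages stayed the least even of the 4. The 5 leading segments held 35.7%, 23.6%, 26.8% and 25.1% of usage in the macrophage libraries, and 11, 15, 14 and 15 segments were needed to reach 50%. In leukemia cells the 5 leading segments held 34.8% and 35.1%, and the effective numbers were 24.6 and 24.99, on 353 and 435 Ighv reads.

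**Figure D2:**
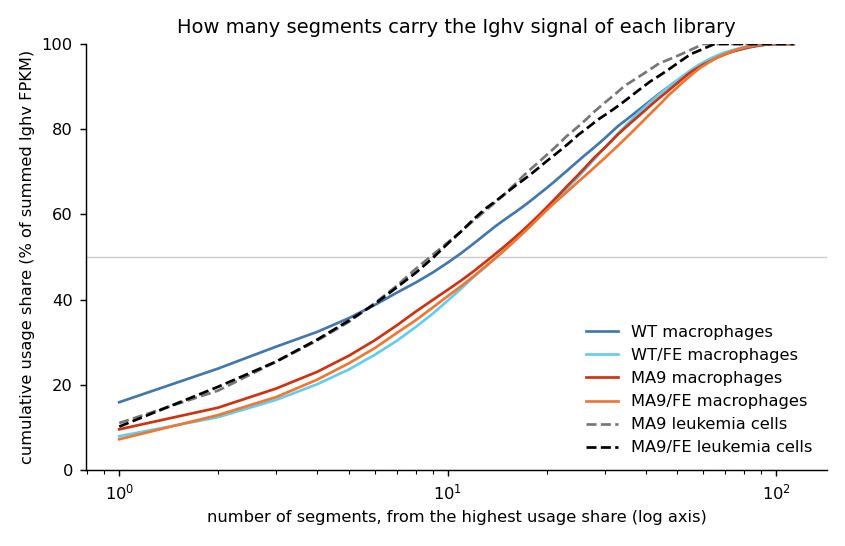
Cumulative usage share (percent of summed Ighv FPKM) against the number of segments taken from the highest share down (log axis), 1 line per library, with 50% marked in grey. WT macrophages start highest, at 15.9%, and the other 3 macrophage libraries run close together, reaching 50% with 14 or 15 segments.

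Ighv7-3, an S107-family segment, had 7299, 1513, 4179 and 1875 reads in the macrophage libraries and was highest in WT. Its share of Ighv reads in WT macrophages was 15.7% (95% Wilson interval 15.3 to 16.0), and its usage was 3.07%, 3.92% and 2.09% in the other macrophage libraries. It was followed in WT macrophages by Ighv3-6 at 7.91%, Ighv1-82 at 5.13%, Ighv1-26 at 3.47% and Ighv2-9-1 at 3.23%. Ighv3-6 was among the 10 most used segments of all 4 macrophage libraries, while Ighv1-82 was used at 1.79% to 1.91% in the other 3.

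In WT/FE macrophages the leader was Ighv1-26, a J558 segment, with 3813 reads and 7.95% of usage. It had 1544 reads in WT, 3776 in MA9 and 3676 in MA9/FE macrophages, or 3.47%, 3.64% and 4.21% of usage. The next segments in WT/FE macrophages, Ighv1-80 (4.47%), Ighv3-6 (4.05%), Ighv6-3 (3.67%) and Ighv1-9 (3.48%), followed closely on each other.

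In MA9 macrophages Ighv1-81 led with 9927 reads and 9.57% of usage. It had 599 reads in WT, 883 in WT/FE and 3105 in MA9/FE macrophages, so MA9/FE macrophages stood between MA9 and the WT libraries. Ighv14-2, an SM7-family segment, was second at 5.09%, with 5279 reads against 447, 448 and 1730 in the others. Ighv1-15 followed at 4.48%, with 4646 reads against 652, 196 and 753.

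In MA9/FE macrophages Ighv9-3, of the VGAM family, led with 6321 reads and 7.24% of usage, against 995, 1659 and 3636 reads in WT, WT/FE and MA9 macrophages. Ighv4-1, the only member of the X24 family among the 113 segments, was second at 5.68%. It had 5847 reads in MA9/FE macrophages and 1034, 1199 and 1321 in the other 3, which lay close together. Ighv1-26 (4.21%), Ighv1-80 (4.09%) and Ighv8-8 (3.85%) came next.

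Each macrophage library thus had its own leading segment, yet a common set of segments ranked high in all of them. Ighv7-3, Ighv1-26, Ighv9-3, Ighv3-6, Ighv1-55, Ighv1-53, Ighv1-80, Ighv1-82, Ighv6-3 and Ighv1-64, 10 segments in all, were among the 20 most used in all 4 macrophage libraries. Ighv1-53 was the steadiest of these 10, with usage of 3.11%, 3.26%, 2.71% and 3.58%.

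Over the 98 segments with at least 4 reads in every macrophage library, the highest usage was a median of 3.03 times the lowest. For 8 segments this ratio was under 1.5, for 26 it was at least 5, and for 7 at least 10. The lowest ratio was 1.30, for Ighv1-59. The highest was 102, for Ighv1-49, which had 7, 29, 1663 and 60 reads. Between pairs of macrophage libraries, usage over the 113 segments gave Spearman's rho of 0.841 to 0.885 and Pearson's r of 0.444 to 0.758. These values are given as a description across segments, which are not independent replicates and share their library. The lowest Pearson value was that of WT against MA9/FE macrophages and the highest that of WT/FE against MA9/FE macrophages.

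**Figure D3:**
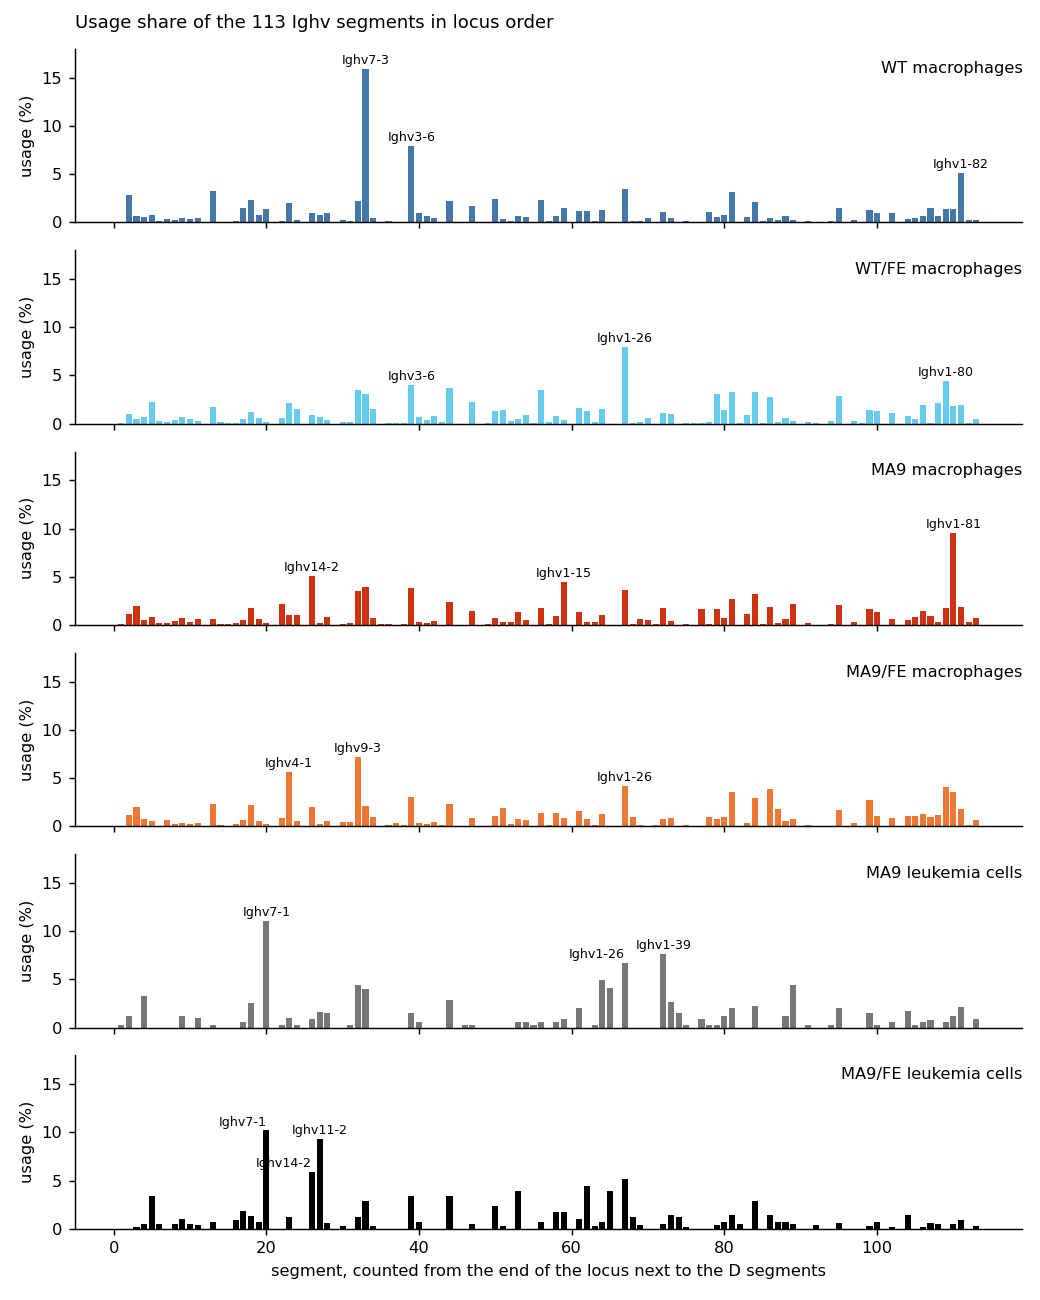
Usage share (percent of summed Ighv FPKM) of the 113 segments in each library, in their order along the locus from the end next to the D segments, with the 3 most used segments of each library named. Ighv7-3 stands out in WT macrophages (15.9%), Ighv1-81 in MA9 macrophages (9.57%), and Ighv7-1 leads both leukemia libraries (11.0% and 10.2%).

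By family, Ighv1 (J558), with 53 of the 113 segments, held 39.8%, 56.3%, 56.1% and 50.6% of usage in the macrophage libraries, against 46.9% of the segments. The Ighv7 family held 17.4% in WT macrophages and 3.25%, 4.18% and 2.37% in the other 3, and Ighv7-3 made up 91.6% of the family in WT macrophages. The Ighv14 family was highest in MA9 macrophages, at 8.83% against 2.55%, 3.42% and 4.34%. The Ighv9 family was highest in MA9/FE macrophages, at 8.47% against 3.63% to 4.41%. Ighv14-2 made up 57.6% of its family in MA9 macrophages, and Ighv9-3 made up 85.5% of its family in MA9/FE macrophages.

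**Figure D4:**
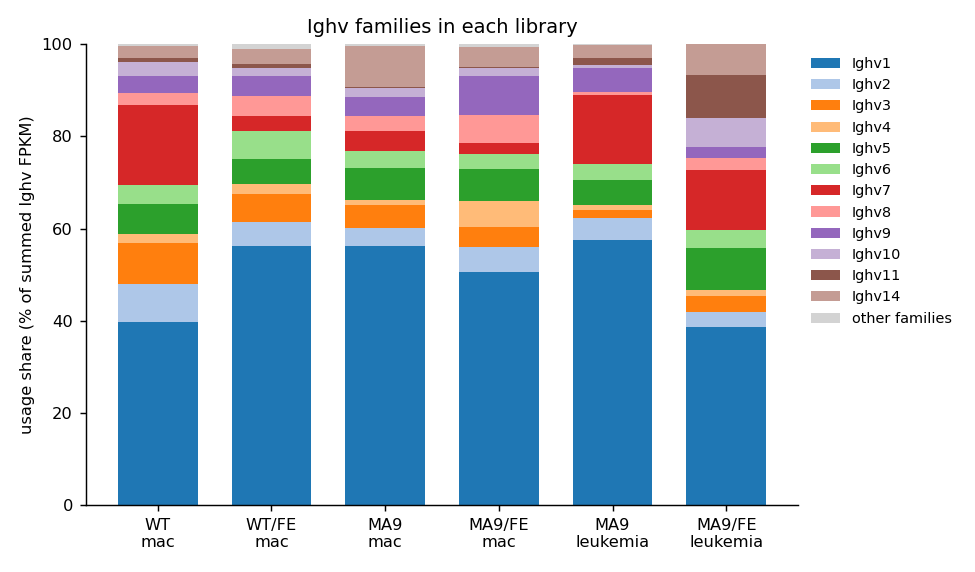
Stacked usage shares (percent of summed Ighv FPKM) of the Ighv families in each library; families 12, 13, 15 and 16 are summed as other families. Ighv1 is the largest family throughout (38.6% to 57.5%), and Ighv7 is large in WT macrophages (17.4%) and in the leukemia cells (15.04% and 13.1%).

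Along the locus, the 113 segments were split into 4 groups in order from the end next to the D segments, of 29, 28, 28 and 28 segments. The group nearest to D (Ighv5-2 to Ighv16-1), which holds no Ighv1 segment, had 21.1%, 17.1%, 21.3% and 22.5% of usage in the macrophage libraries. The second group (Ighv9-1 to Ighv1-11), where Ighv7-3 lies, had 40.0% in WT macrophages and 22.2% to 28.6% in the other 3. The group farthest from D (Ighv8-8 to Ighv1-85) had 19.0%, 25.5%, 29.5% and 29.5%. Every position group was in use in every library.

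Pairs of libraries were scaled by TMM and compared as differences of log2(FPKM + 1). Genes entered with at least 10 reads in 1 of the pair, and a gene was counted as higher or lower at a fold of at least 2. This scale understates the change of low genes. The 4 macrophage comparisons share libraries, so their counts are not independent of each other.

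MA9 against WT macrophages asked what leukemia changed without iron. Of 99 segments with enough reads, 67 were higher and 3 were lower in MA9 macrophages, where 3.79% of all genes compared were higher and 0.91% lower (4.7% in either direction). The median segment differed by 1.42 on the log2 scale, against 0.00 over all genes compared. By usage, which takes out the difference in the Ighv total, 20 segments were higher and 17 lower. Summed over segments, the level was 3954 RPM higher (reads per 1000000 recovered reads), and the 5 segments with the largest gains held 33.8% of the summed gains, with Ighv1-81 first at 13.2%.

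The largest differences above WT among segments with at least 100 reads were those of Ighv1-49 (7.12 on the log2 scale), Ighv14-1 (5.18) and Ighv1-61 (4.62). Ighv14-1 had 2242 reads in MA9 and 65 in WT macrophages, and Ighv1-61 had 2291 and 101. The 3 segments that were lower were Ighv8-5 (-1.93), Ighv7-1 (-1.20) and Ighv2-9-1 (-1.01). Ighv8-5 had 101 reads against 467 in WT macrophages.

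Of the plasma cell markers, 6 of 14 were higher in this pair (Jchain, Xbp1, Sdc1, Derl3, Ell2 and Fkbp11) and none was lower at this fold. Of the B cell markers, none of 16 was higher and 2 (Fcer2a and Fcmr) were lower. Jchain, which links IgM and IgA subunits, stood at 645, 601, 1357 and 1686 FPKM in the macrophage libraries. Of a list of heavy chain rearrangement and expression genes, Rag1, a subunit of the recombinase, was higher, at 1.73 against 0.217 FPKM, and no gene was lower at this fold. The part of these cells in the Ighv difference was not tested.

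MA9/FE against WT/FE macrophages asked the same question under iron. Of 97 segments, 43 were higher and 3 lower in MA9/FE macrophages, where 2.93% of all genes were higher and 1.64% lower (4.57% in either direction), with a median of 0.82 against 0.01 over all genes. By usage, 19 were higher and 13 lower. The largest differences upward were those of Ighv1-77 (4.57), Ighv1-58 (4.12) and Ighv1-31 (4.09). Ighv1-77 had only 37 reads in WT/FE macrophages, but 772, 1057 and 978 in the other 3, so here WT/FE macrophages stood apart. Ighv1-58, in contrast, had 1603 reads in MA9/FE macrophages and between 92 and 215 in the others. The 3 lower segments were Ighv1-36 (-2.07), Ighv5-6 (-1.03) and Ighv1-50, the last with 772 against 1646 reads. Ighv1-50 lies at the threshold: with TMM computed without hemoglobin and immunoglobulin genes its difference was -0.997 and 2 segments were lower. In this pair 5 of 14 plasma cell markers were higher (Jchain, Mzb1, Tnfrsf17, Fkbp11 and Creld2), and no B cell marker passed the fold. No gene of the rearrangement and expression list passed the fold in the comparisons of iron with control.

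WT/FE against WT macrophages asked what iron changed in mice without leukemia. Of 98 segments, 27 were higher and 14 lower with iron, where 0.728% of all genes were higher and 0.543% lower (1.27% in either direction). The median segment differed by 0.51, against -0.01 over all genes. By usage, 19 were higher and 18 lower. The largest loss was that of Ighv7-3, which differed by -284 RPM, out of -697 RPM summed over all segments that were lower in WT/FE macrophages.

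The largest differences upward with iron in WT macrophages were those of Ighv1-50 (2.84), Ighv8-8 (2.75) and Ighv3-1 (2.65). Ighv1-50 had 260 reads in WT and 1646 in WT/FE macrophages. The largest differences downward were those of Ighv1-77 (-3.94), Ighv7-1 (-2.88) and Ighv8-5 (-2.66). Neither the 16 B cell markers nor the 14 plasma cell markers had a member past the fold in this pair, while 4 of 17 macrophage markers, Mertk, Vcam1 and Mrc1 among them, were higher with iron.

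MA9/FE against MA9 macrophages asked what iron changed in leukemic mice. Here 16 of 99 segments were higher and 23 lower with iron, where 1.2% of all genes were higher and 1.26% lower (2.46% in either direction), and the median was -0.16 against 0.01 over all genes. By usage, 19 were higher and 20 lower. The largest differences upward were those of Ighv8-5 (3.12), Ighv1-58 (2.98) and Ighv3-4 (2.80), and the largest downward those of Ighv1-49 (-4.55), Ighv1-36 (-2.92) and Ighv1-56 (-2.89). On the RPM scale the largest gain was that of Ighv4-1 (286 RPM) and the largest loss that of Ighv1-81 (-391 RPM). Of the B cell markers, 2 of 16 (Cd79b and Fcmr) were higher with iron, no plasma cell marker passed the fold, and 9 of 17 macrophage markers were higher.

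The pairs of iron and control libraries in WT and in MA9 macrophages share no library, and their values are set side by side. The WT pair compared 98 segments among 16754 genes, and the MA9 pair 99 among 16512. At a fold of at least 2 in both pairs, 8 segments differed in the same direction and 9 in opposite directions. Among all genes, which include these segments, the counts were 39 and 26. The segments lower with iron in both were Ighv7-3, Ighv1-15, Ighv1-56 and Ighv3-3, and those higher in both were Ighv1-80, Ighv1-78, Ighv1-4 and Ighv12-3. Ighv1-4 had 147, 671, 263 and 1654 reads in the macrophage libraries. Ighv12-3, known from B-1 cells that bind phosphatidylcholine, stayed low throughout, with 28 and 103 reads in the first pair and 30 and 70 in the second. The segments that differed in opposite directions included Ighv8-5, lower with iron in WT (467 and 59 reads) and higher in MA9 macrophages (101 and 856 reads), and Ighv1-49.

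**Figure D5:**
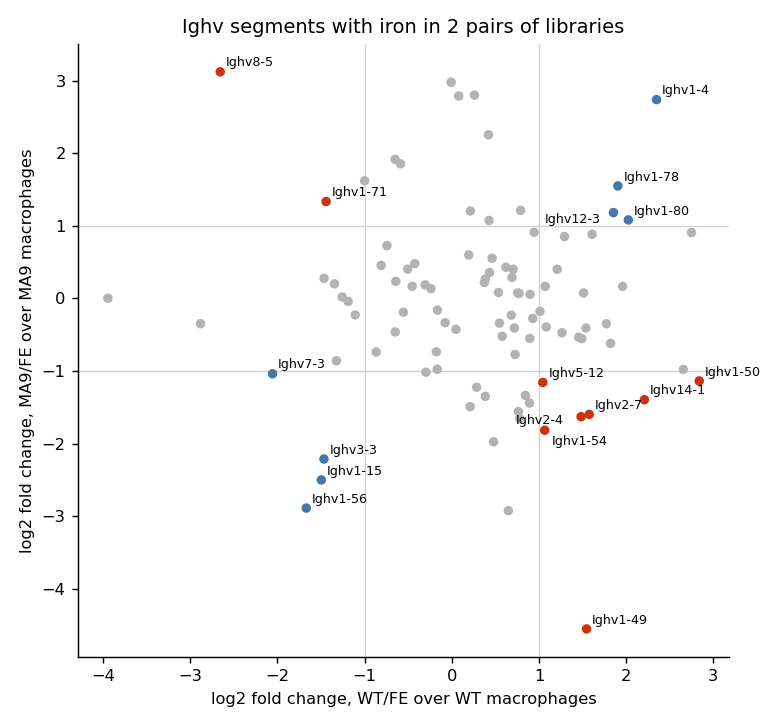
Log2 fold change of each segment with enough reads in both pairs, WT/FE over WT macrophages (horizontal) against MA9/FE over MA9 macrophages (vertical), on the log2(FPKM + 1) scale. Segments past a fold of 2 (grey lines) in the same direction are blue (8) and in opposite directions red (9), with Ighv1-49 and Ighv8-5 farthest out among the red.

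In the leukemia cells, Ighv7-1 led both libraries. It had 39 and 43 reads, which is 11.0% (95% Wilson interval 8.19 to 14.7) and 9.89% (7.42 to 13.1) of Ighv reads. In macrophages it had 625, 68, 232 and 167 reads and at most 1.36% of usage, so the segment that led in leukemia cells ranked no higher than 21st in a macrophage library. In MA9 leukemia cells it was followed by Ighv1-39 (26 reads), Ighv1-26 (23), Ighv1-22 (17) and Ighv9-3 (15). In MA9/FE leukemia cells Ighv11-2, the other segment known from phosphatidylcholine-binding B-1 cells, had 50 reads, more than Ighv7-1, and came second by usage because its annotated exons are longer. Ighv14-2 (24 reads), Ighv1-26 (21) and Ighv1-19 (21) came next.

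Between the 2 leukemia libraries 19 segments had at least 10 reads in 1 of them, and 6 were higher and 4 lower with iron, where 0.435% of all genes were higher and 0.428% lower (0.863% in either direction). The median was 0.15 against 0.00 over all genes, also with the 3 segments at 0 reads in MA9 leukemia cells set at their lower bound. By usage, 7 were higher and 5 lower. Ighv11-2 had 50 reads in MA9/FE and 7 in MA9 leukemia cells (1.95 on the log2 scale), and Ighv14-2 had 24 and 3 (1.72). Ighv1-19 had 21 and 0 reads (95% Poisson intervals 13.0 to 32.1 and 0 to 3.69). With the 0 set at a floor of 3 reads and the 21 taken as exact, it was 7.12-fold higher with iron. Lower with iron were Ighv1-39 (2 against 26 reads, -1.95), Ighv1-61 (2 against 15, -1.35) and Ighv1-22 (3 against 17, -1.31). With at least 50 reads required, 1 segment was left, so these differences rest on few reads. With a pseudocount of 0.1 in place of 1 they kept their sign but were larger, at 2.78 for Ighv14-2, -3.32 for Ighv1-39, -2.55 for Ighv1-61 and -2.26 for Ighv1-22. No gene of the B cell, plasma cell or macrophage marker lists passed the fold in this pair.

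Of 26 segments with at least 3 reads in both leukemia libraries, 8 had higher usage there than in all 4 macrophage libraries: Ighv7-1, Ighv11-2, Ighv1-23, Ighv1-43, Ighv1-42, Ighv1-59, Ighv1-74 and Ighv5-12. With so few Ighv reads, the minimum of 3 reads by itself put Ighv1-23, Ighv1-43, Ighv1-59 and Ighv5-12 above their macrophage usage (at most 0.0112%, 0.0424%, 0.676% and 0.718%), so nothing is read from their place in this list. Ighv7-1 was used at 11.0% and 10.2%, against at most 1.36% in macrophages, and Ighv11-2 at 1.56% and 9.35%, against at most 0.745%. Of the 8, Ighv1-23 was also above every macrophage library as a level on the RPM scale. It had 14 and 16 reads in MA9 and MA9/FE leukemia cells (0.771 and 0.896 RPM) and 5, 4, 7 and 3 reads in the macrophage libraries (0.187 to 0.412 RPM). The V exon of Ighv1-23 was 98.4% identical to that of Ighv1-15, which had 3 and 7 reads in the leukemia cells and 196 to 4646 in macrophages. Both sequences are shown because the counts of the pair run in opposite directions between the cell types. This pair was chosen after its values were seen. Each line gives the last 294 bases of the V exon, Ighv1-15 (chr12:114657353-114657646) and Ighv1-23 (chr12:114764450-114764743), minus strand, with the bases that differ in capitals.
Ighv1-15: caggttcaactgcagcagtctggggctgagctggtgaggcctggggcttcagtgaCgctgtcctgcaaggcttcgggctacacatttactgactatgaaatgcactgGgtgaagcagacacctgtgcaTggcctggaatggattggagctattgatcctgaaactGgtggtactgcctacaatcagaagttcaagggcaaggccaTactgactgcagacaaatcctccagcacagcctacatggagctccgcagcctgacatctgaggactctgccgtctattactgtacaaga
Ighv1-23: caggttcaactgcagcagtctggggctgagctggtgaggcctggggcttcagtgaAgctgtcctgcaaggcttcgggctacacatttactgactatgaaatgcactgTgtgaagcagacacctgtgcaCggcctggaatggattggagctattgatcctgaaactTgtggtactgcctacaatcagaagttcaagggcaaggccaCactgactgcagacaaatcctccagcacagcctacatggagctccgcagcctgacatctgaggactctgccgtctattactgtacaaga
Within these 294 bases the pair differed by 5 substitutions (C56A, G108T, T129C, G166T and T206C, with Ighv1-15 first and positions counted from 1 at the first printed base), and was 98.3% identical. Whether reads were assigned between such close segments by their differing bases was not tested.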

How the data were processed

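RNA-seq was measured in 6 libraries, sequenced on an Illumina NovaSeq. The authors deposited 1 table per library with FPKM values per gene (fragments per kilobase of exon, scaled by library size). The submitters' processing notes name Bowtie2 2.2.5, RSEM and mm10, and the annotation and the use of strand in counting are not given in the sources used here. Each FPKM was multiplied by the union exon length of the gene in GENCODE M21, the products were whole multiples of 1 step in 96.8% to 97.0% of values (tolerance 0.05 reads), and this gave reads per gene and the depth of each library, 16085348 to 19518360 reads. Shares have 95% Wilson intervals for counting error only. Usage, inverse Simpson numbers, analytic rarefaction and log2(FPKM + 1) differences after TMM scaling were computed with Python 3.11.15, pandas 2.3.3, numpy 2.4.6 and scipy 1.17.1, and V exons were aligned globally with edlib. The functions were tested on simulated data. In usage comparisons 0.01 percentage points were added to each share.

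With 1 library per condition no test was run. Named segments are the 5 most used of each library, the 3 largest differences in each direction of each of the 5 comparisons among segments with at least 100 reads (10 in leukemia cells) in the higher library, and those with opposite differences with iron. Segments named for other reasons were chosen after their values were seen. The segments and the marker lists were chosen with earlier results of these data known. Alternatives were another length correction, pseudogenes added, segments at least 97% identical merged, other evenness measures, read minimums, scalings and pseudocounts. Some genes of the lists are not reported here.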

Additional observations from a re-analysis of the deposited data

Results flagged for a closer look

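Among segments with at least 100 reads in 1 library, 7 differed with iron by a fold of at least 2 in opposite directions in WT and in MA9 macrophages. With 1 library per condition the difference between the 2 pairs was not tested. Log2 differences are given with WT first and MA9 second.

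Ighv1-50 differed by 2.84 and by -1.14, Ighv14-1 by 2.21 and by -1.40, and Ighv1-54 by 1.07 and by -1.82. Ighv1-49 differed by 1.55, from 7 to 29 reads, and by -4.55, from 1663 to 60 reads. Ighv5-12 differed by 1.04 and by -1.16, and Ighv2-4 by 1.48 and by -1.63. Ighv8-5 ran the other way, at -2.66 and 3.12. In 6 of the 7, then, iron went with more reads in WT and with fewer in MA9 macrophages. The Ighv share of all reads ran the same way, at 1.25 times in WT and 0.896 times in MA9 macrophages with iron. By usage all 7 kept their directions, but Ighv1-54 (0.760) and Ighv5-12 (0.741) fell short of the fold in WT macrophages.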

How the results depend on the processing

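None of the 3 largest log2 differences in each direction of a comparison changed its sign under the other pseudocount or scalings. By usage, which takes out the Ighv total, some segments did change sign. In MA9 against WT macrophages, Ighv1-53 differed by 1.23 and by -0.198 by usage, and Ighv3-6 by 0.372 and by -1.06. The order of the leukemia libraries did turn with shares of reads in place of FPKM: the leading segment then held 11.0% in MA9 and 11.5% in MA9/FE (11.0% and 10.2% by FPKM), and the effective number was 25.07 and 23.4 (24.6 and 24.99 by FPKM). No paired analysis was possible because each condition has 1 library, and no library could be left out within a condition. As a share of summed FPKM in place of reads, the Ighv signal was 1.59%, 2.198%, 4.44% and 2.91% in the macrophage libraries (from WT to MA9/FE), and 0.0173% and 0.0212% in the leukemia cells (MA9 first). With pseudogenes added, the read share in leukemia cells was 0.00230% and 0.00273%. As a share of Ighv reads, the leading segment held 7.63%, 9.20% and 6.91% in WT/FE, MA9, MA9/FE macrophages, and merging segments at least 97% identical gave 9.53% in WT/FE macrophages. From the Shannon entropy, the effective number was 43.2, 52.7, 51.7 and 54.3 in the macrophage libraries (from WT to MA9/FE), so WT macrophages were again the least even. It was 35.9 and 37.9 in the leukemia cells (MA9 first). At a minimum of 1 read, 60 and 65 segments were detected in the leukemia libraries, and at 10 reads 11 and 13. Counting by usage gave 37 segments past the fold in MA9 against WT macrophages in place of 70, and a minimum of 50 reads left 1 in the leukemia comparison in place of 10. The counts over all genes moved more with a pseudocount of 0.1 than those of the segments. In WT/FE against WT macrophages, 426 genes were then higher and 358 lower, in place of 122 and 91, and 28 and 15 segments, in place of 27 and 14. In the leukemia cells it was 325 and 306 genes, in place of 67 and 66, and 7 and 5 segments, in place of 6 and 4. With a pseudocount of 0.1, Ighv1-19 differed by 4.91 between the leukemia libraries in place of 1.97, Ighv14-2 by 2.78 in place of 1.72, Ighv1-39 by -3.32 in place of -1.95, Ighv1-61 by -2.55 in place of -1.35, and Ighv1-22 by -2.26 in place of -1.31. Under the alternatives, 85 values of libraries or comparisons and 119 of single segments stayed within their counting error or, for counts and effective numbers, within 1.5 times. The 85 thus include large shifts, such as the effective number of MA9 macrophages, 34.6 by the inverse Simpson index and 51.7 from the Shannon entropy. The shifts of Ighv14-2, Ighv1-39, Ighv1-61 and Ighv1-22 just given are among the 119, because counting error is wide in the leukemia cells. Depth limits the leukemia cells most, with 353 and 435 Ighv reads.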

Other observations

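The 70 Ighv pseudogenes took 93, 88, 227 and 101 reads in the macrophage libraries (from WT to MA9/FE), at most 0.210% of all reads on Ighv segments and pseudogenes. In MA9 and MA9/FE leukemia cells they took 64 and 53 reads, which is 15.3% and 10.9%. Most of these fell on 1 pseudogene, Ighv1-41, with 49 and 33 reads in the leukemia cells and 2, 0, 2 and 7 reads in the macrophage libraries. In MA9 leukemia cells Ighv1-41 thus had more reads than any of the 113 segments. Another pseudogene, Ighv1-14, had 107 reads in MA9 macrophages and 4, 1 and 1 in the other 3 macrophage libraries. Both were picked out after their values were seen.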
